A study of Mus musculus with 14 samples.

Results

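The genes described here belong to serine synthesis, the mitochondrial folate pathway and the integrated stress response. They are Phgdh, Psat1, Psph, Shmt2, Mthfd2, Atf4, Asns, Trib3, Ddit3 and Sesn2, found by exact gene symbol, and all 10 were present among the 16703 genes of the table. They were listed with the response to dihydrotestosterone (DHT, an androgen that is not converted into estrogen) already known, that is, they were selected on the log2 CPM differences between DHT and vehicle in each sex, and these differences are given as a description. Whether one of them passed limma's threshold is told only to show how it moves with libraries and scaling, and nothing is supported by it. RNA was sequenced from whole spinal cords of wild-type C57Bl/6 mice, females ovariectomized and males castrated, with experimental autoimmune encephalomyelitis (EAE) induced with a MOG peptide in complete Freund's adjuvant after a week of acclimatization that followed an age of 9 to 10 weeks. From the onset of symptoms the mice received intranasal DHT at 0.04 mg per day in an oily gel, or the gel alone (vehicle), for 8 days. All groups therefore share gonadectomy and EAE, and no intact or healthy mouse is among them. There were 4 vehicle and 3 DHT libraries per sex, numbered here as their columns are, so that male DHT libraries run from 2 to 4, while 4 animals per group are given in the Methods. Female and male mice formed separate datasets joined by the authors' normalization, so that sex and dataset cannot be told apart.

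Serine is made from an intermediate of glycolysis by Phgdh, Psat1 and Psph, which act in this order. Inside mitochondria Shmt2 splits serine into glycine and a folate-bound carbon unit, which Mthfd2 oxidizes for the synthesis of nucleotides. In the integrated stress response, kinases that sense amino acid shortage, misfolded protein, heme or viral RNA phosphorylate eIF2, which lowers general translation and favours translation of Atf4, a transcription factor that drives genes of amino acid supply, including those of serine synthesis. Within the nervous tissue astrocytes are known as a main site of serine synthesis, and activated lymphocytes as strong users of mitochondrial folate enzymes. Since ATF4 is controlled largely at translation, its mRNA level does not report its activity.

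Depth after the normalization of the authors was 29311155 to 35761972 reads per library, and a gene without reads stands at 0.0631 CPM (reads of a gene scaled to a common library total), so that every gene described here lay well above the floor in every library. The Hox genes of the thoracic and lumbar cord were present in all groups (summed level of 4 genes 134 to 221 CPM). Xist, which is transcribed from the inactive X chromosome, went against the label of male DHT 3 (log2 CPM 7.41, other males at most 0.14) and was low in female vehicle 3 (3.04, other females at least 6.80). The 14 columns were also not independent of each other. Across the 10955 genes whose reads numbered 200 or more in all libraries, the smallest singular value of the log2 CPM matrix was 0.382 against 7.18 for the next, and male DHT 3 held 62.6% and female vehicle 3 23.9% of the squared weight in that direction. The deposited values of male DHT 3 are thus close to a weighted sum of the other columns, while limma treats the 14 as independent, and the effect of this on the p-values was not tested. Over all genes, limma's moderated test with Benjamini-Hochberg adjusted p under 0.05 called 47.1% in the female comparison of DHT with vehicle, 22.8% in the male comparison, 12.7% between the sexes on vehicle and 1.86% for the interaction of sex and DHT. Without male DHT 3 the male comparison called 7.20% of all genes and limma called 0 interactions (4250 genes at an unadjusted p under 0.05). The female split of 3306 higher to 4565 lower genes depended on scaling: it was 5129 to 3235 after quantile normalization and 7793 to 2379 after centring on 33 housekeeping genes. The median female difference of all genes moved with it, from -0.02 on the log2 scale to 0.13 and 0.29. Of these 33 genes, 25 had an unadjusted limma p under 0.05 in the female comparison, 19 lower and 6 higher with DHT. In the male comparison there were 14, with 6 lower and 8 higher. Centring on these genes, or a covariate made from them, can therefore take up part of the DHT response.

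Asns, asparagine synthetase and a classical ATF4 target, is shown with its promoter because it was higher with DHT in both sexes and alone among the 10 genes carried the searched motif. The motif TGATGNAA stands for the composite element bound by ATF4 with C/EBP proteins, and it was searched on both strands in the 250 bases upstream of the RefSeq start (build GRCm38.p6). Of 32851 promoters, 3.45% held it, and so did 1 of the 10 genes. The Asns match lies 23 to 16 bases upstream of the RefSeq start, within chr6:7693210-7693258 on the minus strand. In the GENCODE annotation the gene begins further upstream, at chr6:7693254, so that the match lies inside it there. The match is in capitals here.
Asns: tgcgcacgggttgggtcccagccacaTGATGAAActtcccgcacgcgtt

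Asns read 5.77, 5.96, 5.85 and 5.66 log2 CPM in female vehicle 1 to 4 and 6.22, 6.17 and 6.13 in female DHT 1 to 3. Male vehicle 1 to 4 stood at 5.58, 5.63, 5.82 and 5.56, and male DHT 2 to 4 at 5.87, 5.96 and 5.98. Every DHT library thus lay above every vehicle library of its own sex. The log2 difference was 0.36 ± 0.08 (SE, 3 against 4 libraries) in females, a ratio of 1.29, and 0.29 ± 0.08 in males, a ratio of 1.22. After centring on housekeeping genes it was 0.68 and 0.34, and the male value was then no longer past the threshold, a limma adjusted p under 0.05. It also fell short with a housekeeping factor as a covariate (0.20) and without male vehicle 1 (0.27), male vehicle 4 (0.26), male DHT 3 (0.28) or male DHT 4 (0.27).

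Sesn2, a stress-induced protein that binds leucine and restrains mTORC1, went opposite to Asns. It read 4.54, 4.43, 4.33 and 4.64 log2 CPM in the female vehicle libraries and 4.19, 4.10 and 4.14 with DHT. In males it was 4.64, 4.64, 4.65 and 4.70 with vehicle and 4.44, 4.28 and 4.45 with DHT. In both sexes all DHT libraries lay below all vehicle libraries. This amounted to a log2 difference of -0.34 ± 0.08 in females and -0.27 ± 0.08 in males. The female value shrank to -0.16 with quantile normalization and to -0.03 with housekeeping centring, where the median of all genes stood at 0.29. With neither scaling was it past the threshold. In males it missed the threshold with quantile normalization (-0.23), housekeeping centring (-0.22) or the housekeeping covariate (-0.22), and without male vehicle 1 (-0.27), male vehicle 4 (-0.25) or male DHT 3 (-0.21).

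Because Asns and Sesn2 are read in the same library, their log2 difference does not depend on a scaling factor of the library. This pair was chosen after its values were seen. Asns minus Sesn2 was 1.23, 1.53, 1.52 and 1.02 in female vehicle 1 to 4 against 2.04, 2.07 and 1.99 with DHT, and 0.94, 0.99, 1.17 and 0.85 in male vehicle 1 to 4 against 1.42, 1.69 and 1.52 with DHT. The groups did not overlap in either sex, which was fixed beforehand, since Asns and Sesn2 each did not overlap and moved in opposite directions. Means were 1.33 ± 0.25 (SD, n = 4) and 2.03 ± 0.04 (n = 3) in females and 0.99 ± 0.13 (n = 4) and 1.55 ± 0.13 (n = 3) in males.

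**Figure D1:**
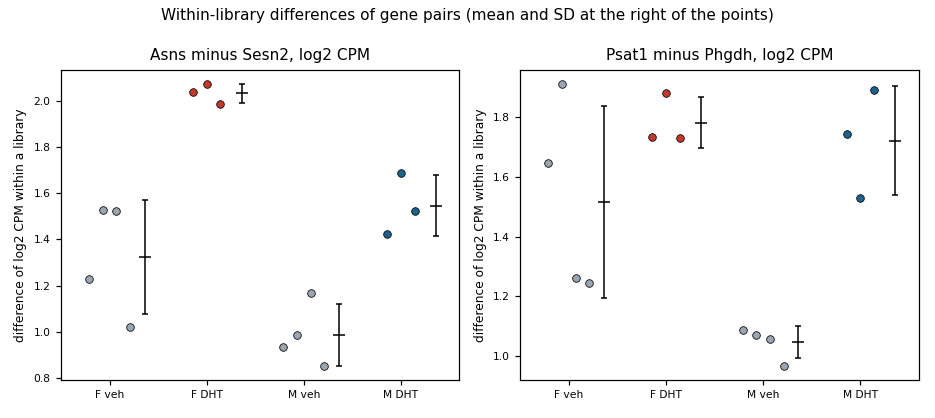
Within-library differences of log2 CPM for Asns minus Sesn2 (left) and Psat1 minus Phgdh (right), one point per library in female (F) and male (M) vehicle (veh) and DHT groups, with mean and SD beside the points. Asns minus Sesn2 is 1.99 to 2.07 in the female DHT libraries, above all 4 female vehicle libraries, and 1.42 to 1.69 in the male DHT libraries, above all 4 male vehicle libraries. This separation follows from those of Asns and Sesn2 taken alone.

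The 3 enzymes of serine synthesis did not move as a block. Phgdh, the first enzyme, read 5.46, 5.37, 6.10 and 5.62 log2 CPM in female vehicle 1 to 4 and 5.74, 5.88 and 5.75 with DHT. Female vehicle 3 exceeded all DHT libraries and the other female vehicle libraries lay below them. In males Phgdh was 6.30, 6.20, 6.12 and 6.23 with vehicle and 5.50, 5.86 and 5.69 with DHT, so that the male groups were apart. DHT and vehicle differed by a log2 value of 0.15 ± 0.14 in females and -0.53 ± 0.14 in males, a male ratio of 0.694. The female value rose to 0.31 without female vehicle 3 and to 0.47 with housekeeping centring, both past the threshold. The male value missed it with that centring (-0.48) and without male vehicle 1 (-0.50), male vehicle 4 (-0.52), male DHT 2 (-0.43) or male DHT 4 (-0.53).

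The contrast of the sexes on vehicle did not itself serve to list the genes. It uses the vehicle libraries of the differences that did, so that its p-values are not independent of the listing and support nothing. In this contrast Phgdh was lower in females than in males by a log2 difference of -0.57 ± 0.13 (limma adjusted p = 0.0184 over all genes). All 4 female libraries lay below all 4 male ones. It alone among the 10 genes was called in this contrast, in which 12.7% of all genes were called and 5.53% were called lower in females. Without female vehicle 1, female vehicle 2, male vehicle 1 or male vehicle 4 the difference was -0.51, -0.48, -0.54 or -0.57 and no longer passed. Sesn2 also did not overlap between the vehicle groups of the sexes (-0.17 ± 0.07), as 21.0% of all genes did not (9.71% with females lower), and its limma adjusted p was 0.119, with a call, among the alternatives run, only when female vehicle 4 was left out (-0.22).

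Psat1, the aminotransferase of the pathway, read 7.11, 7.28, 7.36 and 6.86 log2 CPM in female vehicle 1 to 4 and 7.48, 7.76 and 7.48 with DHT, so that the female groups were apart. Male vehicle libraries stood at 7.39, 7.27, 7.18 and 7.19 and male DHT libraries at 7.24, 7.39 and 7.59, which overlapped. The log2 difference was 0.42 ± 0.12 in females, a ratio of 1.34, and 0.15 ± 0.12 in males. The paper instead lists Psat1 with microglia genes lowered by DHT in females only, the opposite direction. The authors' own fold changes were not used here, and the source of this conflict was not tested. Without female DHT 2 the female value was 0.33 and missed the threshold, as it did when females were fitted alone (0.42). Psat1 minus Phgdh, another pair chosen after its values were seen, was 0.97 to 1.09 in the male vehicle libraries and 1.53 to 1.89 in the male DHT libraries. In females it was 1.24 to 1.91 with vehicle and 1.73 to 1.88 with DHT, which overlapped.

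Psph, the phosphatase that releases serine, was the least expressed of the 3 enzymes per length (2.01 to 2.76 CPM per kb of exon, against 16.6 to 31.7 for Phgdh and 27.4 to 51.0 for Psat1). It read 3.33, 3.59, 3.20 and 3.30 log2 CPM in the female vehicle and 3.13, 3.33 and 3.33 in the female DHT libraries. Male vehicle libraries stood at 3.46, 3.55, 3.43 and 3.53 and male DHT libraries at 3.26, 3.25 and 3.46. Both sexes overlapped, with log2 differences of -0.09 ± 0.10 and -0.17 ± 0.10.

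**Figure D2:**
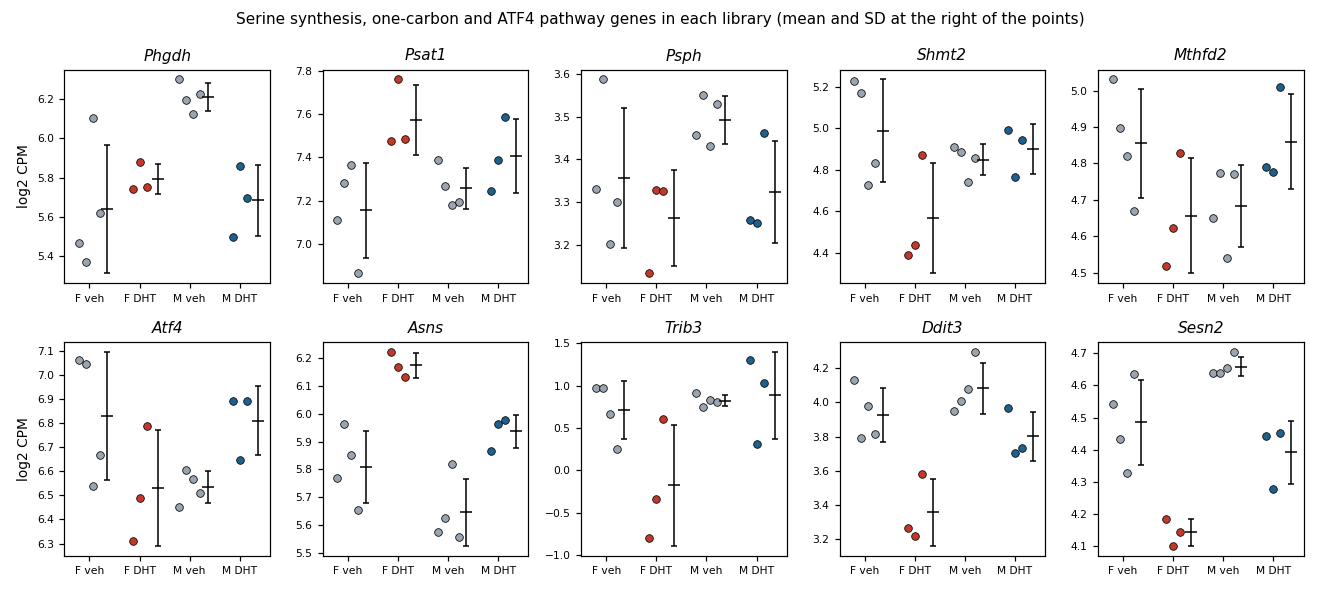
Level of each of the 10 genes in log2 CPM in every library, in female (F) and male (M) vehicle (veh) and DHT groups, with the group mean and SD beside the points. Each panel has its own vertical axis, which does not start at 0. Asns is higher and Sesn2 lower with DHT in both sexes without overlap, while Phgdh lies at 6.12 to 6.30 in the male vehicle libraries and at 5.50 to 5.86 with DHT.

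Shmt2 and Mthfd2, the mitochondrial folate enzymes, were lower on average with DHT in females and not in males. Shmt2 read 5.23, 5.17, 4.73 and 4.83 log2 CPM in female vehicle 1 to 4 and 4.39, 4.44 and 4.87 with DHT. Male libraries held 4.91, 4.89, 4.74 and 4.86 with vehicle and 4.99, 4.77 and 4.94 with DHT. Female DHT 3 lay among the vehicle libraries, the other female DHT libraries below them, and the male groups overlapped. DHT minus vehicle gave a log2 difference of -0.42 ± 0.14 in females and 0.05 ± 0.14 in males. The female value missed the threshold without female vehicle 1 (-0.34), female vehicle 2 (-0.36), female DHT 1 (-0.33) or female DHT 2 (-0.36), and it was also not called with females fitted alone (-0.42), quantile normalization (-0.26) or housekeeping centring (-0.11).

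Mthfd2 read 5.03, 4.90, 4.82 and 4.67 log2 CPM in female vehicle 1 to 4 and 4.52, 4.62 and 4.83 with DHT. In males the levels were 4.65, 4.77, 4.54 and 4.77 with vehicle and 4.79, 4.78 and 5.01 with DHT. The female groups overlapped and the male groups lay just apart. This amounted to a log2 difference of -0.20 ± 0.10 in females (-0.28 and past the threshold without female DHT 3) and 0.18 ± 0.10 in males. Housekeeping centring raised all female differences alike (median of all genes from -0.02 to 0.29), and Mthfd2 was then no longer lower in females. The genes with the smallest root-mean-square difference from its pattern over the 14 libraries, after each gene's mean was subtracted, were Hmgn1 (0.0705 on the log2 scale), Nop16 (0.0717) and Srsf2 (0.0720), against 0.149 for Mthfd2 around its own mean. For Phgdh, which varied by 0.294, they were Foxj1 (0.0973), Fads2 (0.113) and Adra2a (0.122). Foxj1, a transcription factor of ciliated cells such as the ependyma, averaged 4.80 and 4.94 log2 CPM in female vehicle and DHT libraries and 5.26 and 4.81 in the male ones.

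Atf4 itself had the highest top level of the 10 genes per length (33.7 to 56.6 CPM per kb). It read 7.06, 7.05, 6.54 and 6.67 log2 CPM in female vehicle 1 to 4 and 6.31, 6.49 and 6.79 with DHT, which overlapped. Male vehicle libraries stood at 6.45, 6.60, 6.57 and 6.51 and male DHT libraries at 6.89, 6.65 and 6.89, all above vehicle. The log2 difference was -0.30 ± 0.14 in females and 0.28 ± 0.14 in males. Neither passed the threshold, while the female value did without female vehicle 3 (-0.40) or female DHT 3 (-0.43) and the male value did when males were fitted alone. The female fall of Atf4 was lost with housekeeping centring, which raised all female differences alike (median of all genes from -0.02 to 0.29).

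Ddit3, which encodes the transcription factor CHOP linked to cell death under prolonged stress, read 4.13, 3.79, 3.98 and 3.82 log2 CPM in female vehicle 1 to 4 and 3.27, 3.22 and 3.58 with DHT, so that the female groups were apart. Males held 3.95, 4.01, 4.08 and 4.29 with vehicle and 3.97, 3.70 and 3.73 with DHT, where male DHT 2 reached the vehicle range. The mean difference came to -0.57 ± 0.12 in females, a ratio of 0.673, and -0.28 ± 0.12 in males. With housekeeping centring the female value was -0.26 and missed the threshold.

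Trib3, a pseudokinase induced by ATF4 and CHOP, was the least expressed of the 10 genes (0.240 to 1.14 CPM per kb). It read 0.97, 0.97, 0.66 and 0.25 log2 CPM in female vehicle 1 to 4 and -0.80, -0.34 and 0.61 with DHT. In males it was 0.91, 0.75, 0.83 and 0.80 with vehicle and 1.31, 0.32 and 1.03 with DHT. Female DHT 3 lay within the vehicle range, and male DHT libraries fell on both sides of the vehicle libraries. DHT minus vehicle gave a log2 difference of -0.89 ± 0.32 in females and 0.06 ± 0.32 in males, the widest errors among the 10 genes. The female value missed the threshold without female vehicle 1 (-0.81), 2 (-0.81) or 3 (-0.91) or without female DHT 1 (-0.58) or 2 (-0.81), and also with females fitted alone (-0.89), quantile normalization (-0.59), housekeeping centring (-0.58) and a housekeeping factor as a covariate (-0.03). A minimum mean log2 CPM of 1 left Trib3 out of the fit.

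**Figure D3:**
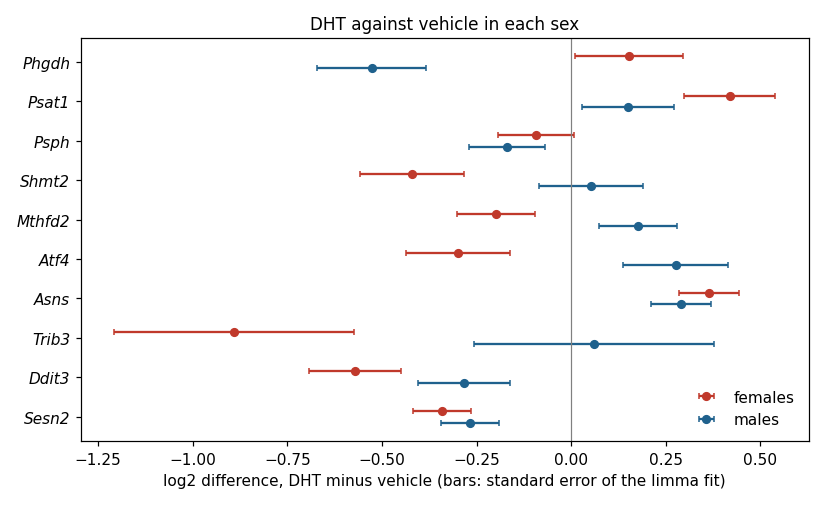
Log2 difference of DHT minus vehicle for each of the 10 genes in females (red) and males (blue), with bars of 1 SE from the limma fit over all 14 libraries. Asns lies above 0 and Sesn2 and Ddit3 below 0 in both sexes, Phgdh is 0.15 in females and -0.53 in males, and Atf4 is -0.30 and 0.28.

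In females 6 of the 10 genes passed adjusted p under 0.05, beside 47.1% of all genes: Psat1 and Asns were higher (19.8% of all genes were called higher) and Shmt2, Trib3, Ddit3 and Sesn2 lower (27.3%). In males 3 of the 10 genes passed, beside 22.8% of all genes: Asns was higher (12.1%) and Phgdh and Sesn2 lower (10.7%). Female libraries did not overlap for Psat1 and Asns, higher with DHT (19.0% of all genes), and for Ddit3 and Sesn2, lower with DHT (21.4%), where 40.4% of all genes did not overlap in either direction. Male libraries did not overlap for Mthfd2, Atf4 and Asns, higher (18.5%), and for Phgdh and Sesn2, lower (20.4%), where 38.9% of all genes did not. As these contrasts served to list the genes, nothing is read from these shares. Of the 10 genes, 3 were called in females without female DHT 2, where 28.3% of all genes were. The male count was 0 without male vehicle 1 (14.2% of all genes) or male vehicle 4 (10.4%). It was 1 without male DHT 3 (7.20%) or male DHT 4 (16.8%). With housekeeping centring the counts were 3 in females, where 60.9% of all genes were called, and 0 in males, where 14.1% were. With a housekeeping factor as a covariate limma called 0 female differences over the whole table (301 genes at an unadjusted p under 0.05). That factor was 0.63, 0.53 and 0.10 in female DHT 1 to 3 and -0.26 to 0.00 in the female vehicle libraries. It thus partly stands for the treatment itself, and the loss of female calls cannot be read apart from this.

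The interaction of sex and DHT was called by limma for 0 of the 10 genes, beside 1.86% of all genes. At an unadjusted p under 0.05 there were 4 of the 10 genes and 4672 of all genes. Its estimates, female minus male response, were 0.68 ± 0.20 for Phgdh, -0.47 ± 0.20 for Shmt2, -0.37 ± 0.15 for Mthfd2, -0.58 ± 0.19 for Atf4 and -0.95 ± 0.45 for Trib3. Without female DHT 3 these genes were called, with values of 0.70, -0.63, -0.46, -0.70 and -1.34, but then 25.4% of all genes were. Phgdh alone was called without female vehicle 3 (0.84) and with housekeeping centring (0.94), where 4.57% and 3.29% of all genes were called. For Asns (0.07 ± 0.11) and Sesn2 (-0.07 ± 0.11) the estimates were within their errors.

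Cell type markers also differed between DHT and vehicle, and in whole tissue fewer cells of a type and less RNA per cell cannot be told apart. T cell markers (7 genes) fell in females in 7 of 7, with a summed level of 49.8 to 93.9 CPM with vehicle and 1.65, 5.76 and 33.7 CPM in female DHT 1 to 3. Markers of cycling cells fell in 6 of 6, from 142 to 207 CPM to 13.4, 53.0 and 128 CPM. Female DHT 3 was the highest library of its group for both sums. It was also highest for the microglia and macrophage (983 CPM), neutrophil (130 CPM) and astrocyte sums (9862 CPM), and lowest for the neuronal and oligodendrocyte sums. Within that group it was highest for Shmt2, Mthfd2, Atf4, Trib3 and Ddit3 as well. It was lowest for Asns, however, and in the middle for Phgdh, Psat1, Psph and Sesn2. The part of any of these cell types in the result was not tested. Among male libraries limma called 0 of the 7 T cell and 0 of the 6 cycling markers, also at an unadjusted p under 0.05. Their summed levels there were 61.7 to 106 and 29.7 to 72.7 CPM for T cells and 123 to 208 and 118 to 183 CPM for cycling cells, vehicle and DHT.

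Microglia and macrophage markers fell in 8 of 8 genes in females (summed 1011 to 2325 CPM with vehicle, 190 to 983 CPM with DHT) and in 4 of 8 in males (2285 to 3331 and 824 to 1376 CPM). Neutrophil markers fell in 5 of 6 genes in females, from 224 to 318 CPM to 10.8 to 130 CPM, while limma called 0 of 6 in males, adjusted or not, with 245 to 444 and 167 to 238 CPM. B cell and plasma cell markers stood at most at 8.28 CPM in sum, and 1 of 5 fell in females and 0 in males (limma, 1 at an unadjusted p under 0.05). Neuronal markers rose in 8 of 8 genes in females (3924 to 5517 and 5811 to 7698 CPM) and in 3 of 8 in males (3777 to 4271 and 5241 to 5741 CPM). Oligodendrocyte markers rose in 3 of 8 in females and 1 of 8 in males. Endothelial markers fell in 3 of 6 and 2 of 6, and the Hox genes of the cord rose in 3 of 4 in females and, by limma with or without adjustment, 0 of 4 in males.

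Astrocyte markers bear on the serine enzymes in particular. In females 2 of 8 were higher and 2 lower with DHT (summed 7513 to 10383 and 7261 to 9862 CPM), and in males 1 of 8 was lower (9714 to 11598 and 8698 to 9680 CPM). The male vehicle libraries, which held the highest Phgdh levels, thus also lay narrowly above the male DHT libraries in the summed astrocyte level. Single libraries went both ways. Male vehicle 3 was lowest of its group for the astrocyte sum (9714 CPM) and Phgdh (6.12 log2 CPM). Male DHT 3 had the lowest astrocyte sum of its group (8698 CPM) and the highest Phgdh (5.86 log2 CPM). The part of the astrocyte level in the Phgdh difference was not tested.

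The other genes of each pathway were taken from lists put together with earlier results of these data known, and the adjusted p-values that follow are limma's over all 16703 genes. Counts of the main fit read against 19.8% higher and 27.3% lower calls over all genes in females and 12.1% and 10.7% in males. Those shares are 3306 and 4565 genes in females and 2023 and 1783 in males. Counts of other settings read against their own calls. In females these were 7793 higher and 2379 lower with housekeeping centring and 5129 and 3235 with quantile normalization. They were 2150 and 2614 with females fitted alone, and 1626 and 2759 without female DHT 1. For males they were 1205 and 1158 with centring, and 547 and 655 without male DHT 3. With the housekeeping covariate 0 genes of these lists were called in females, as over the whole table. Male DHT values are given in the order of libraries 2 to 4, and each male gene named from a list without a remark on male DHT 3 was still called when that library was left out.

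**Figure D4:**
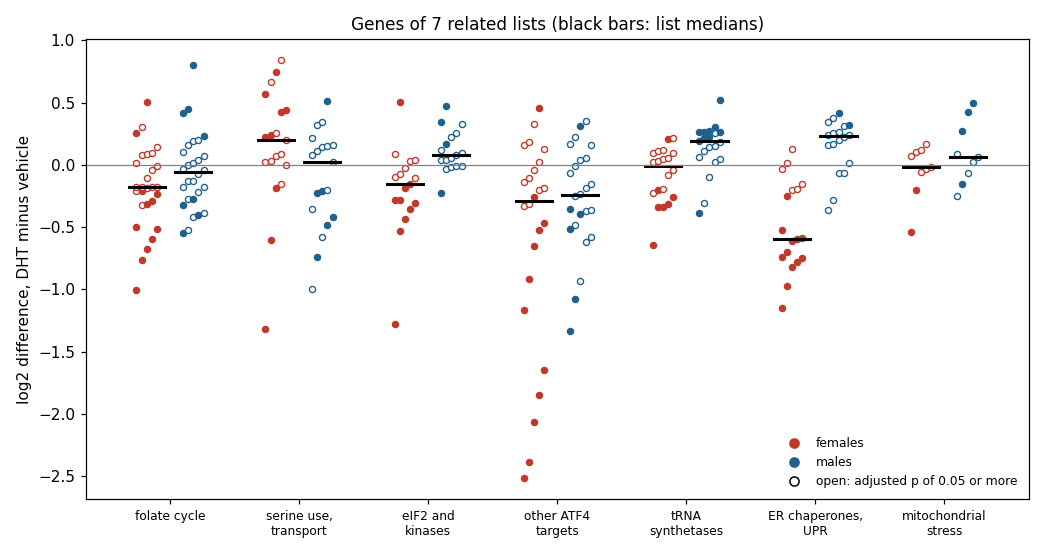
Log2 difference of DHT minus vehicle for every measured gene of 7 related lists, females red and males blue, filled where the limma adjusted p over all genes is under 0.05. Black bars are list medians: the endoplasmic reticulum (ER) list has a median of -0.59 in females and 0.23 in males, and the other ATF4 targets of -0.29 and -0.24, which turn to 0.03 in females with housekeeping centring and to 0.01 in males with the housekeeping covariate.

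Among known ATF4 targets outside the 10 genes, 11 of 24 fell and 1 rose in females (median log2 difference -0.29, all genes -0.02), and 5 fell and 1 rose in males (median -0.24, all genes -0.00). The female counts were 9 lower and 3 higher with quantile normalization and 7 lower and 6 higher with housekeeping centring, where the median turned to 0.03, and 6 lower with females fitted alone. The male counts were 3 lower and 0 higher with that centring, 2 and 0 with the covariate (median 0.01), and 9 and 2 with males fitted alone. Nupr1, a small stress-induced chromatin protein, read 4.50, 4.75, 5.05 and 5.51 log2 CPM in female vehicle 1 to 4 and 2.35, 2.75 and 4.21 with DHT, a log2 difference of -1.85 ± 0.35 (limma adjusted p = 0.00478). Eif4ebp1, the translation repressor controlled by mTORC1, read 3.54, 3.42, 2.98 and 3.75 against 0.08, 1.30 and 2.69, a difference of -2.06 ± 0.45 (limma adjusted p = 0.00527). In both genes female DHT 3 came closest to the vehicle libraries, although no library crossed over. Each of the 3 female DHT libraries lay below the female vehicle range for Cebpg too. Cebpg, a bZIP partner of ATF4, differed by -0.52 ± 0.11 in females (limma adjusted p = 0.00490).

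In males the ATF4 targets with the smallest p were Pck2, Bbc3 and Gpt2. Pck2, the mitochondrial enzyme that makes phosphoenolpyruvate, read 5.17, 5.01, 5.02 and 5.08 log2 CPM in male vehicle 1 to 4 and 4.58, 4.54 and 4.54 in male DHT 2 to 4, a difference of -0.52 ± 0.08 (limma adjusted p = 0.00384). Bbc3, which encodes the cell death protein PUMA, differed by -1.07 ± 0.20 (limma adjusted p = 0.00591). Without male DHT 3 Pck2 and Bbc3 were still called (-0.51 and -1.05). Gpt2, a mitochondrial alanine aminotransferase, differed by -0.40 ± 0.10 (limma adjusted p = 0.0199). Gpt2 missed the threshold without male vehicle 1, male vehicle 4, male DHT 2 or male DHT 3 (-0.36, -0.37, -0.30 and -0.43). The female count of lower genes was 7 and 6 without female DHT 1 and 2, and the male count was 2 without male vehicle 1, male vehicle 4, male DHT 2 or male DHT 3. The single higher gene was lost in females without female DHT 1, and in males without male vehicle 1, male vehicle 4, male DHT 2, male DHT 3 or female DHT 2, while 2 were higher in males without female DHT 3.

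Of the 19 genes of this list with a RefSeq promoter, 8 held TGATGNAA on one of the strands, beside 3.45% of all promoters. Since the list was put together from known ATF4 targets, nothing is read from this share. Shown are the sites of called genes, in the orientation of each gene, with the match in capitals (TTNCATCA is the motif on the opposite strand) and GRCm38.p6 coordinates. They are Atf3 at chr1:191183425-191183454, Nupr1 at chr7:126625562-126625591, Slc7a11 at chr3:50443661-50443690 and chr3:50443642-50443671, Jdp2 at chr12:85599372-85599401, Pck2 at chr14:55540152-55540181 and Vldlr at chr19:27216809-27216838.
Atf3 (minus strand): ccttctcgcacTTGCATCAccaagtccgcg
Nupr1 (minus strand): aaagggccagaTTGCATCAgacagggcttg
Slc7a11, first site (minus strand): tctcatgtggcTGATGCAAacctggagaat
Slc7a11, second site (minus strand): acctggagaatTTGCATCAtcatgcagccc
Jdp2 (plus strand): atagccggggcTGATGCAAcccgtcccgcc
Pck2 (plus strand): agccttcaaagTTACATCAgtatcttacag
Vldlr (plus strand): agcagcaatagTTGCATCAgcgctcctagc

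Genes with the same letters upstream did not share a direction. In females Atf3, a stress-induced bZIP repressor, differed by -2.51 (limma adjusted p = 0.00582) and Slc7a11, the cystine transporter, by -0.92 (limma adjusted p = 0.0253). Jdp2, another bZIP repressor, differed by -0.26 (limma adjusted p = 0.0406). Vldlr, a lipoprotein receptor, rose by 0.46 (limma adjusted p = 0.0122). The remaining holders, Chac1 and Pycr1, had limma adjusted p of 0.137 and 0.644 in females. Atf3, Slc7a11, Jdp2 and Vldlr are named for their promoters after their values were seen.

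Genes of the folate cycle fell in 10 of 28 and rose in 2 in females (median -0.18), and 4 fell and 4 rose in males (median -0.06). Shmt1, the cytosolic counterpart of Shmt2, read 1.99, 2.07, 1.85 and 2.58 log2 CPM in female vehicle 1 to 4 and 0.82, 0.91 and 1.62 with DHT, a difference of -1.01 ± 0.21 (limma adjusted p = 0.00487). Sfxn1, the mitochondrial serine transporter, differed by -0.32 ± 0.07 in females (limma adjusted p = 0.00568), which became -0.00 with housekeeping centring. Mthfd2l, a mitochondrial relative of Mthfd2, rose in both sexes, by 0.50 ± 0.09 in females (limma adjusted p = 0.00478) and 0.45 ± 0.09 in males (limma adjusted p = 0.00673). It read 3.62, 3.56, 3.66 and 3.46 against 4.14, 4.19 and 3.91 in females and 3.24 to 3.40 against 3.70 to 3.85 in males, without overlap. In males Dld, the lipoamide dehydrogenase of glycine cleavage, rose by 0.41 ± 0.07 (limma adjusted p = 0.00570) and Slc46a1, a proton-coupled folate transporter, differed by -0.55 ± 0.11 (limma adjusted p = 0.00811), and both were called without male DHT 3 (0.35 and -0.61). Without female DHT 1 or 2, 5 and 4 folate genes were lower in females and 1 was higher. The male higher count was 2 without male vehicle 1, male vehicle 4 or male DHT 3, and the male lower count was 2 without male vehicle 4, male DHT 3 or male DHT 4. The female counts were 6 higher and 5 lower with quantile normalization and turned to 9 higher and 1 lower with housekeeping centring, where the median was 0.14.

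Genes of serine use and transport rose in 6 and fell in 3 of 19 in females (median 0.20), and 1 rose and 5 fell in males (median 0.03). The female counts were 11 higher and 1 lower with housekeeping centring (median 0.51) and 2 and 2 with females fitted alone. The male counts were 1 higher and 2 lower with that centring, 1 and 3 with quantile normalization, 3 and 6 with males fitted alone, and 0 and 4 with the covariate (median -0.06). Slc1a5, a neutral amino acid exchanger that carries serine and glutamine, read 4.45, 4.92, 4.28 and 5.07 log2 CPM in female vehicle 1 to 4 and 2.92, 3.20 and 3.97 with DHT, a difference of -1.32 ± 0.24 (limma adjusted p = 0.00478). Slc6a9, the glycine transporter GlyT1, rose by 0.57 ± 0.14 in females (limma adjusted p = 0.00670). Serinc3 differed by -0.60 ± 0.16 in females (limma adjusted p = 0.00999) but missed the threshold with housekeeping centring (-0.29) and without female DHT 1 (-0.50) or 2 (-0.52). In males Serinc1 rose by 0.51 ± 0.12 (limma adjusted p = 0.0130; 0.40 and not called without male DHT 3). Sdsl, related to serine dehydratase, differed by -0.42 ± 0.10 (limma adjusted p = 0.0161), and was not called without male DHT 2 or male DHT 3. Ptdss1, which exchanges serine into phosphatidylserine, differed by -0.22 ± 0.06 (limma adjusted p = 0.0163) and was not called without male DHT 2 (-0.19). The female higher count was 3 without female vehicle 1 or 4 and 2 without female DHT 1 or 2, where the lower count was 1. The male lower count was 1 without male DHT 2 or 3, 2 without male vehicle 1 or 4 and 3 without male vehicle 2, male vehicle 3 or female DHT 2, and the higher count was 0 without male DHT 3 and 2 without female vehicle 3, female DHT 3, male vehicle 3 or male DHT 2.

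Upstream of Atf4, a list of 17 genes held eIF2 kinases, their regulators Gcn1, Dnajc3 and Impact, eIF2 subunits, Eif2b genes and phosphatase partners. In females 9 of the 17 fell and 1, Impact, rose (median -0.15), and 1 fell and 3 rose in males (median 0.08). The female balance depended on scaling, with 4 lower and 1 higher under quantile normalization and 1 lower and 7 higher under housekeeping centring, where the median turned to 0.16. With females fitted alone 2 were lower. Eif2s1, the eIF2 subunit that the kinases phosphorylate, read 5.78, 5.80, 5.63 and 5.70 log2 CPM in female vehicle 1 to 4 and 5.28, 5.37 and 5.62 with DHT. In males it was 5.22, 5.31, 5.33 and 5.14 with vehicle and 5.85, 5.71 and 5.61 with DHT. Its difference was -0.30 in females (limma adjusted p = 0.0149) and 0.47 ± 0.09 in males (limma adjusted p = 0.00624), and all 3 DHT libraries of each sex lay outside the vehicle range, below it in females and above it in males. With housekeeping centring, which raised all female differences alike (median of all genes from -0.02 to 0.29), Eif2s1 was no longer lower in females. Eif2s2, the beta subunit, differed by -0.36 ± 0.08 in females (limma adjusted p = 0.00627; -0.04 with housekeeping centring). Ppp1r15b, the constitutive partner of the eIF2 phosphatase, differed by -0.43 ± 0.11 (limma adjusted p = 0.00762; -0.12 with housekeeping centring).

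Impact, which restrains the amino acid sensing kinase, rose in both sexes, by 0.50 ± 0.10 in females (limma adjusted p = 0.00478) and 0.34 ± 0.10 in males (limma adjusted p = 0.0251). The male value was not called without male vehicle 1, 2 or 4 or male DHT 3 or 4 (0.29 to 0.36). Eif2ak1, the heme-regulated kinase, rose by 0.16 ± 0.05 in males (limma adjusted p = 0.0333) and lost the call without any one of the 7 male libraries. The female count of lower genes was 3 without female vehicle 1 or female DHT 1, 4 without female vehicle 2 and 2 without female DHT 2. The male count of higher genes was 1 without male vehicle 1, 2 or 4 or male DHT 3 or 4, and that of lower genes was 0 without any male library other than male DHT 4, and also without female vehicle 3, female DHT 1 or female DHT 2.

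The list of cytosolic tRNA synthetases, many of which are ATF4 targets, also holds the tRNA exporter Xpot, which was not called in either sex. Of its 20 genes, 9 rose and 1 fell in males (median 0.19), and 1 rose and 6 fell in females (median -0.01). Iars, the isoleucine enzyme, read 6.47, 6.67, 6.56 and 6.31 log2 CPM in male vehicle 1 to 4 and 6.97, 7.01 and 7.10 with DHT, a difference of 0.52 ± 0.11 (limma adjusted p = 0.00802). Nars, the asparagine enzyme, rose in both sexes, by 0.27 ± 0.06 in males (limma adjusted p = 0.0116) and 0.21 ± 0.06 in females (limma adjusted p = 0.0151). Gars, the glycine enzyme, rose by 0.27 ± 0.06 in males (limma adjusted p = 0.0147). Neither Gars nor Nars was called in males without male DHT 3 (0.28 and 0.23), and Nars was not called in females without female DHT 1 (0.17). Qars, the glutamine enzyme, differed by -0.64 ± 0.12 in females (limma adjusted p = 0.00478), and Rars, the arginine enzyme, by -0.31 ± 0.09 (limma adjusted p = 0.0129), which turned to 0.00 with housekeeping centring and was -0.25 and not called without female DHT 1 or 2.

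Without male DHT 3, the library whose Xist level went against its label, 1 synthetase rose in males, and without male vehicle 4, male vehicle 1 or male DHT 2 the count was 3, 5 and 5. Leaving out female DHT 1 or 2 left 1 lower synthetase in females and leaving out female vehicle 1 left 3. The female higher count was 2 without female vehicle 2 and 0 without female DHT 1, and it was 11 after housekeeping centring, where 1 was lower and the median was 0.30. Quantile normalization left 3 lower (median 0.02). The male lower count ranged from 0 to 2 over the libraries left out: it was 0 without female vehicle 1, female vehicle 2, any male vehicle library, male DHT 3 or male DHT 4, and 2 without female vehicle 3 or female DHT 3.

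Chaperones and sensors of the ER, whose stress activates the kinase branch of the same response, fell in 12 and rose in 0 of 18 in females by limma (13 and 0 at an unadjusted p under 0.05, median -0.59). In males 2 rose and 0 fell (5 and 1 unadjusted, median 0.23). Pdia4, a disulfide isomerase, read 7.02, 6.95, 6.76 and 6.94 log2 CPM in female vehicle 1 to 4 and 5.65, 6.11 and 6.64 with DHT, a difference of -0.78 ± 0.17 (limma adjusted p = 0.00497). Ern1, which encodes the stress sensor IRE1, differed by -0.70 ± 0.13 (limma adjusted p = 0.00478), and Calr, the calcium-binding chaperone calreticulin, by -0.59 ± 0.13 (limma adjusted p = 0.00506). In males Dnajb9, an ER co-chaperone, rose by 0.41 ± 0.06 (limma adjusted p = 0.00364) from 5.55, 5.45, 5.54 and 5.44 to 5.97, 5.96 and 5.79, and Hsp90b1, the ER HSP90, rose by 0.32 ± 0.07 (limma adjusted p = 0.0118; 0.29 and not called without male DHT 3). The female count was 8 to 14 over the libraries left out and 6 lower with 3 higher under housekeeping centring. The male higher count was 4 without female DHT 3, 1 without male DHT 3 and 6 with males fitted alone.

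Mitochondrial stress genes rose in 3 and fell in 1 of 9 in males and by limma fell in 2 and rose in 0 in females (1 higher unadjusted), with medians of 0.06 and -0.01. In females 2 rose and 0 fell with quantile normalization (median 0.03), and 6 rose and 0 fell with housekeeping centring (median 0.30). Hspd1, the mitochondrial chaperonin HSP60, read 7.08, 7.11, 7.09 and 6.94 log2 CPM in male vehicle 1 to 4 and 7.46, 7.61 and 7.60 with DHT, a difference of 0.50 ± 0.07 (limma adjusted p = 0.00342). Yme1l1, an inner membrane protease, rose by 0.43 ± 0.08 (limma adjusted p = 0.00568) and Hspa9, the mitochondrial HSP70, by 0.27 ± 0.05 (limma adjusted p = 0.00713), and the count of 3 stood whichever library was left out. In females Oma1, the protease that signals mitochondrial damage to the kinases, differed by -0.54 ± 0.15 (limma adjusted p = 0.0109; -0.38 and not called without female DHT 1). Hspe1, the partner of Hspd1, differed by -0.20 ± 0.07 (limma adjusted p = 0.0249), which turned to 0.12 with housekeeping centring and was -0.16 and not called without female DHT 1 or 2. The female lower count was 0 and 1 without these libraries, the female higher count was 1 without male DHT 2, and the single lower gene in males was lost without any library other than female vehicle 2, female vehicle 4 or female DHT 3.

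Gene positions were read from the GENCODE M21 annotation of GRCm38 (mm10 in the submitters' notes). Asns spans chr6:7675169-7693254 and Phgdh chr3:98313170-98339990, both on the minus strand. Reads of Phgdh are less certain than the others, since 21 annotated sequences, most of them processed pseudogenes, match its transcript at 90.4% to 98.7% identity and none of them is a row of the table. Psph shares 452 identical bases with Cct6a on the opposite strand, which is in the table, and Shmt2 overlaps Ndufa4l2 on the opposite strand. The library kit marks strand, but whether counting used it is not given in the sources used here.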

How the data were processed

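The authors deposited, for 16703 genes of low-expression-filtered RNA-seq data, log2 CPM values per library. Per their Methods and submitted notes, the authors used FastQC, fastp, DRAGEN on mm10, Picard and edgeR, and joined both sexes by RUVSeq on housekeeping genes. These log2 values differ from raw counts, so limma (3.58.1, R 4.3.3; lmFit, eBayes with trend) was fitted to all 14 libraries in 4 groups, with Benjamini-Hochberg adjustment over all genes at 0.05. This stands in for the count test of the Methods. In 30 further columns the authors' fold changes and p-values are held, which were not used, and 0 other columns of per-sample values were left out. Values resolved into whole reads (100% within a tolerance of 0.05), on which voom was an alternative. p-values measure the spread between these libraries, which the labels do not tie to single animals.

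The 10 genes and all lists were chosen with earlier results of these data known. Named are all 10 genes, the 3 called genes of smallest p per list and sex, the 3 genes nearest to Phgdh and to Mthfd2, and exceptions stated in the text. The fit was tested on simulated data. Alternatives covered scaling, a housekeeping covariate, a minimum mean log2 CPM of 1, a pseudocount of 0.5 CPM, each sex alone, a block and each library left out. Levels per length used merged exons, near-identical sequences BLAST 2.17.0, and tables Python 3.11.15 with pandas 2.3.3. Some listed genes had no row in the table. Column numbers only name libraries, and a column was tied to a group, not to a single sample.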

Additional observations from a re-analysis of the deposited data

Results flagged for a closer look

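Of the 37 genes named from the lists, 6 responded differently to DHT in the 2 sexes by limma's interaction test, with adjusted p over all genes, as 310 of all genes (1.86%) did. The named genes were picked for their p in the DHT contrasts from which the interaction is built, so that their count supports nothing. Of all 135 list genes 8 were called, the others being Tars (-0.51 ± 0.12, limma adjusted p = 0.0455) and Sptlc2 (-0.34 ± 0.08, limma adjusted p = 0.0459). The estimates, female minus male response, were -0.77 ± 0.12 for Eif2s1 (limma adjusted p = 0.0262), -0.58 ± 0.12 for Eif2s2 (0.0389), -0.58 ± 0.12 for Rars (0.0420), -0.57 ± 0.10 for Hsp90b1 (0.0305), -0.44 ± 0.08 for Dnajb9 (0.0333) and -0.86 ± 0.18 for Calr (0.0404). Hsp90b1, Eif2s1 and Rars were called in each sex with opposite signs, Calr and Eif2s2 in females, where they were lower, and Dnajb9 in males, where it was higher. Housekeeping centring raised all female differences alike (median of all genes from -0.02 to 0.29). Under it Hsp90b1, Eif2s1 and Rars were no longer lower in females. Each of the 6 lost the call when some libraries were left out, with limma adjusted p up to 0.0938 for Eif2s1, 0.118 for Eif2s2, 0.130 for Rars, 0.0974 for Hsp90b1, 0.0974 for Dnajb9 and 0.118 for Calr, while the estimates kept their sign throughout. Without male DHT 3 limma called 0 interactions over all genes (4250 at an unadjusted p under 0.05). With housekeeping centring Dnajb9, Eif2s2, Hsp90b1 and Rars were not called (-0.18, -0.32, -0.31 and -0.31). Sex and dataset cannot be told apart here.

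Single libraries stood apart in 3 of 94 vehicle groups examined, where chance marks about 5%. Dld was at 7.01 log2 CPM in female vehicle 3 against 6.84 to 6.86 in the others, a gap of 0.846 of the range. Ern1 was at 5.54 in female vehicle 4 against 5.06 to 5.09, a gap of 0.935 of the range. Hspd1 was at 6.94 in male vehicle 4 against 7.08 to 7.11, a gap of 0.842 of the range.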

How the results depend on the processing

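Signs of the 10 genes' differences held in every alternative run where the difference had been called. Among the list differences named by smallest p, signs turned in females for Hspe1 and Rars with housekeeping centring (0.115 and 0.00284). With the housekeeping covariate they turned for Rars (0.0419) and Serinc3 (0.0838). None of these values was called. Centring raised all female differences alike, so that female falls smaller than that of Rars (-0.31) turned too. These include Mthfd2, Atf4 and Psph, which had not been called, and Eif2s1 and Hsp90b1, which had. Calls over all genes in females (7871) numbered 8364 with quantile normalization, 10172 with centring and 4764 with each sex alone. They were 0 with the covariate (limma, 301 at an unadjusted p under 0.05), and 4385 to 8879 with a library left out. In males (3806) they were 5093 with each sex alone, 2363 with centring and 1799 with the covariate. Without both female vehicle 3 and male DHT 3 they were 1093, and with a library left out 1202 to 4825. Between vehicle groups (2117) they were 925 with centring and 689 to 2792. Interaction calls (310) were 489 with quantile normalization, 550 with centring, 506 with a minimum mean, 0 with limma under the covariate, the replicate block and without both libraries (3039, 3461 and 4813 at an unadjusted p under 0.05), and 0 to 4236 with a library left out. Of the 10 genes, females (6) had 3 with each sex alone, quantile normalization or centring, 0 with the covariate and 3 to 8 with a library left out. Males (3) had 0 with centring, 1 with the covariate or without both libraries and 0 to 3. Vehicle groups (1) had 0 to 2. The cause of these shifts was not tested. The pseudocount and voom moved no call of the 10 genes, and the minimum mean left Trib3 out, so that 5 were called in females. The block on column numbers, which the labels do not give as a pairing, removed the female calls of Shmt2 and Trib3 among the 10 genes and no other. Trib3 rests on the fewest reads, and 3 or 4 libraries per group limit precision.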
